A study of Mus musculus with 12 samples.

Results

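The E2F transcription factors E2f1 to E2f8 and the E-type cyclins Ccne1 and Ccne2 were followed in male germ cells of the mouse through fetal and newborn life. Their rows were found by matching the Ensembl identifiers of the deposited table to the 10 gene symbols. All 10 were found, among 55487 genes, and all 10 passed the filter on low values used for testing. They were grouped by role into activators (E2f1, E2f2, E2f3), canonical repressors (E2f4, E2f5, E2f6), atypical repressors (E2f7, E2f8) and cyclins.

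RNA was sequenced from 12 libraries of germ cells of the testis, called gonocytes, 3 each at E13.5 and E16.5 (embryonic days), at P0, when the mice were born, and at P3, 3 days later. All came from mice carrying Mvh-Venus, a transgene in which regulatory sequence of Mvh (Ddx4), a gene of germ cells, drives a fluorescent protein. No other treatment is named for any group. The series concerns the loss of Morc1, and its labels disagree on genotype. Titles and source names call every library WT, while the genotype tag reads Morc1 (+/-) at E13.5 and P0 and Morc1 (-/-) at E16.5 and P3. If the tag holds, each comparison of neighbouring stages also crosses genotype, and so does P3 against E13.5. Stage and genotype cannot be told apart in these comparisons. P0 and E13.5 carry the same tag, as do P3 and E16.5. No label says whether the 3 libraries of a stage came from separate animals or pools, so p-values measure only the spread between these libraries.

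E2F proteins bind DNA at the promoters of genes for DNA replication and cell division. The activators switch those genes on when the retinoblastoma protein releases them, and cyclin E with the kinase CDK2 drives that release at the entry to S phase. The canonical repressors E2F4 and E2F5 work with the pocket proteins p107 and p130, E2F6 works with a Polycomb complex, and the atypical E2F7 and E2F8 bind DNA without a DP partner. Male germ cells of the mouse stop dividing in the fetal testis and divide again after birth.

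Several E2F genes carry E2F-binding words in their own promoters, so the sequence just upstream of the start site is shown for 4 members that differed in their course. They are E2f3 and E2f7, whose windows held an E2F word, E2f8, which had the widest range, and E2f6, which ran against the rest. Sequences are from RefSeq on GRCm38.p6, read 5′ to 3′ on the gene's strand and ending at the base before the start site. That of E2f6 stops 2 bases short of this, where its GENCODE gene begins. Capitals mark E2F words and words of the CHR (cell cycle genes homology region), the element bound by the MuvB complex, on either strand. The intervals are chr13:29986064-29986313 on the minus strand for E2f3, chr10:110745189-110745438 on the plus strand for E2f7, chr7:48881597-48881846 on the minus strand for E2f8 and chr12:16810715-16810962 on the plus strand for E2f6.
E2f3: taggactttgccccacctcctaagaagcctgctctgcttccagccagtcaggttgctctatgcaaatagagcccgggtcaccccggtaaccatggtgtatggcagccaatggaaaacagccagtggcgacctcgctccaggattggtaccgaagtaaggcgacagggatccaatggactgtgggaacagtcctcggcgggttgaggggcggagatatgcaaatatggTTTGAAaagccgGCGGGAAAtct
E2f7: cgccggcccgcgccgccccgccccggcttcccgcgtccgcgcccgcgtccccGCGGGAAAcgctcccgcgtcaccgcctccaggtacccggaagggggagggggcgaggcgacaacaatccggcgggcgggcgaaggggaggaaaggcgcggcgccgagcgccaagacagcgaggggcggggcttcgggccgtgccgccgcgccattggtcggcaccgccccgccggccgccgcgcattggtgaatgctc
E2f8: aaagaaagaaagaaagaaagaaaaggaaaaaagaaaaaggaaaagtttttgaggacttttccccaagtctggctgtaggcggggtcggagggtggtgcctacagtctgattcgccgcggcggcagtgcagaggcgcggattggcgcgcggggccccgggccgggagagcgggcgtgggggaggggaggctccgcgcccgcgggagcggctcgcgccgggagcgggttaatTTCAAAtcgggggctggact
E2f6: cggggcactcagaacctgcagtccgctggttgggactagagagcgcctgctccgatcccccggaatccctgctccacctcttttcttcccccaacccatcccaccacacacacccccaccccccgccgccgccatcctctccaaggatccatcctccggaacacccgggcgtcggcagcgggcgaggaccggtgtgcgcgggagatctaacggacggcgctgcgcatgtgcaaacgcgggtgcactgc
The upstream sequence of E2f3 held both kinds of word close to the start, that of E2f7 held an E2F word farther out, that of E2f8 held a CHR word and that of E2f6 held neither.

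The words searched were TTTCCCGC, TTTCGCGC, TTTGCCGC and TTTGGCGC for E2F, TTTGAA for the CHR and CCAAT, on both strands of windows from 250 bases before to 50 bases after each start. Windows were at hand for 7 of the 10 members, those other than E2f4, E2f5 and Ccne2. An E2F word stood at positions -11 to -4 of E2f3, -198 to -191 of E2f7 and 40 to 47 of E2f2, counted from the start site, and so in 3 of 7 members. Over all genes with a window 704 of 27025 (2.6%) held one, or 744 of 32851 windows (2.26%), and 11 of 23 S-phase target genes with a window did. In the window of E2f1 all 250 bases before the start lie inside its GENCODE gene, so the sequence before that gene was not searched. The same holds for the second windows of E2f2 and E2f3. A CHR word stood at -23 to -18 of E2f3 and -20 to -15 of E2f8, and in a second window of E2f2, against 17.9% of all windows. CCAAT words lay in windows of E2f2, E2f3, E2f7 and E2f8, against 37.4% of all windows. No word overlapped another. A match describes letters only and is not evidence of binding.

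The recovered reads that fell in genes numbered 40946616 to 51533747 per library. Values are normalized counts, reads divided by 1 size factor per library. Every ± is an SD over the 3 libraries of a stage, and libraries are named by stage and by the number 1, 3 or 4 in the column heads. Morc1 itself averaged 1697 ± 116 normalized counts at E13.5, 31378 ± 2642 at E16.5 and, after birth, 7496 ± 214 at P0 and 10881 ± 276 at P3, so its transcript was present at all 4 stages, whichever label holds. All 8 germ cell markers, Ddx4 and Dazl among them, were present at every stage, with a summed normalized count of 259800 to 269810 at E13.5, 243620 to 269280 at E16.5, 138330 to 146800 at P0 and 240490 to 255350 at P3. The lower sum at P0 rests on the size factors and does not measure germ cell content. Scaling to equal library totals uses factors 1.42, 0.997, 0.629 and 1.13 times the deposited ones, from the youngest stage to the oldest. It would raise every marker sum at P0 and lower those at E13.5 and P3. Markers of other cells were detected too, several of them most at P0. The 6 Sertoli markers summed to 3311 to 6198 at P0 and 1380 to 3463 elsewhere. The 4 peritubular and interstitial markers summed to 1922 to 2048 at P0, against 118 to 126 at E13.5, 1053 to 1278 at E16.5 and 901 to 1007 at P3. The 5 mast cell markers were all at 0 at E13.5 and summed to 1277 to 2856 at P0, with 22.3 to 37.2 at E16.5 and 3.04 to 310 at P3. The 5 Leydig markers spread widely at E16.5 (608 to 7681) and P0 (1078 to 6106) and stood at 571 to 723 at E13.5 and 179 to 267 at P3, where Insl3 was at 0. The 5 red blood cell markers summed to 66.3 to 443, 1791 to 2513, 1599 to 2532 and 291 to 546 from the youngest stage to the oldest. The 5 markers of macrophages and endothelium summed to 4412.5 to 5144, 1312 to 1389, 666 to 795 and 689.95 to 774 in the same order, with Adgre1 at 0 at P3. Pecam1, which fetal germ cells also express, held 4326 to 5074 of the E13.5 sum, and without it the other 4 summed to 46.8 to 86.2, 1002 to 1177.5, 139.97 to 251 and 273 to 310, and so were lowest at E13.5 and highest at E16.5. The part of these other cells in the results was not tested. In bulk RNA, fewer cells of a type and less RNA per cell cannot be told apart.

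Between E13.5 and E16.5 all members but E2f6 fell, by 2.02-fold (E2f1) to 50.5-fold (E2f8), while E2f6 rose 2.58-fold. From E16.5 to P0 the differences were smaller and went both ways, and E2f1 and E2f6 were the members that fell. From P0 to P3 all 10 rose, by 1.79-fold (E2f2) to 11.3-fold (E2f8). When libraries were scaled to equal totals, 8 passed as higher (limma adjusted p under 0.05), and E2f2 and E2f5 did not. At P3 the transcripts stood between 42.3% (E2f5) and 260.5% (E2f6) of their E13.5 level. The folds and percentages are ratios of stage means of normalized counts.

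**Figure D1:**
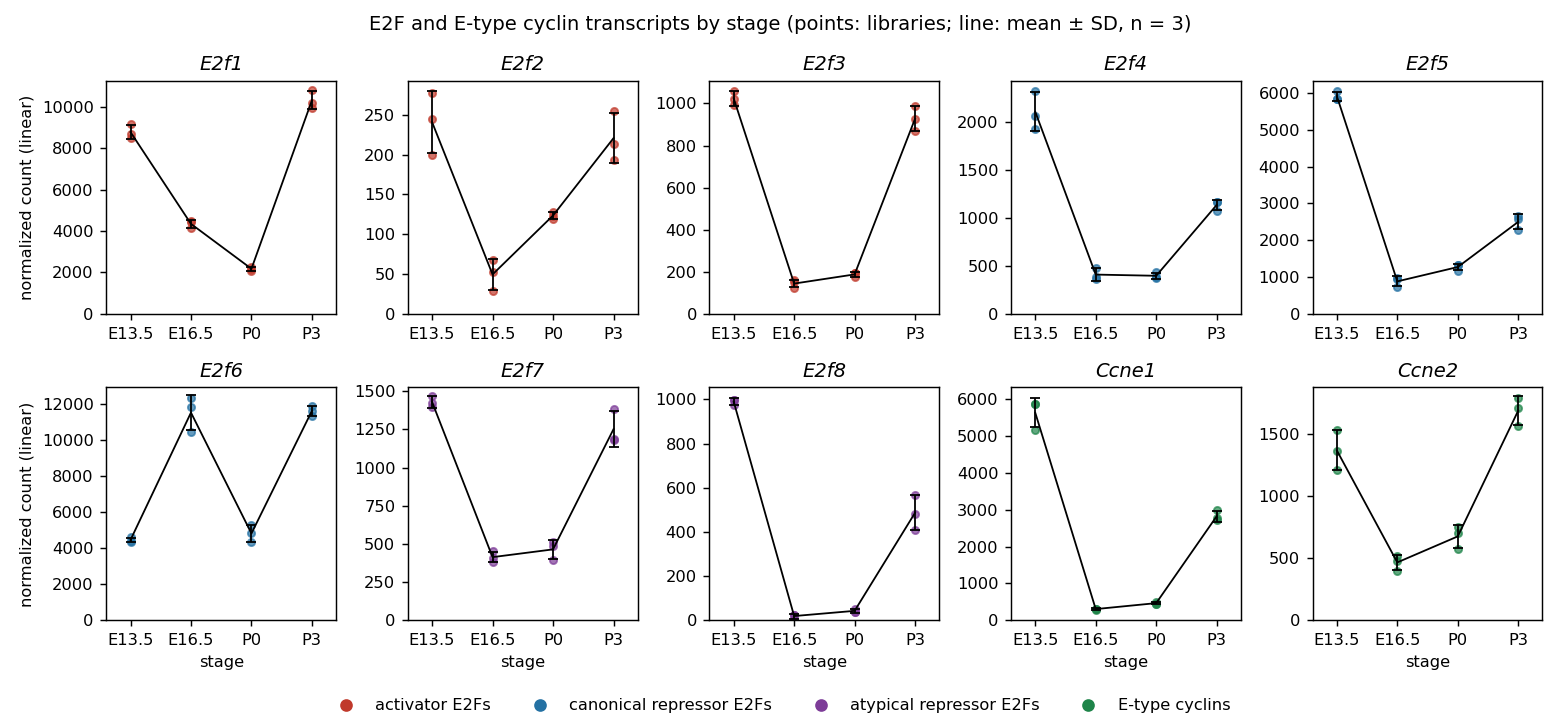
Normalized count (linear axis, starting at 0) of each of the 10 genes by stage, with points for the 3 libraries of each stage, a line through the stage means and bars of 1 SD. Apart from E2f6, each gene was highest at E13.5 or P3, and E2f6 was high at E16.5 and P3.

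The activator E2f1, the founding member of the family, lies at chr2:154559407-154569892 (minus strand, GENCODE M21 on GRCm38, as for all positions of genes here). It held 8512, 8664 and 9153 normalized counts at E13.5, 4481, 4417 and 4139 at E16.5, 2174, 2288 and 2075 at P0 and 10155, 9960 and 10801 at P3. Its fall thus came in a pair of steps of about equal size, no stages overlapped, and the level at P3 was the highest of the 4. E2f1 differed by -1.01 on the log2 scale between E16.5 and E13.5 (SE 0.0666, limma adjusted p = 3.89e-10), by -0.996 between P0 and E16.5 (SE 0.0666, limma adjusted p = 1.50e-09) and by 2.24 between P3 and P0 (SE 0.0666, limma adjusted p = 6.83e-14). P3 exceeded E13.5 by 0.23 on the log2 scale (limma adjusted p = 0.00529).

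E2f2 and E2f3, the other activators, reached their lowest level at E16.5 rather than at P0. E2f2 (chr4:136172394-136196057, plus strand) was the least abundant member per length at P3 and E13.5, and held 245, 277 and 199.8 normalized counts at E13.5, 28.6, 67.9 and 52.2 at E16.5, 123, 128 and 119.7 at P0, and 213, 193 and 255 at P3. Its E16.5 libraries rest on 30, 73 and 66 reads, and they lay below all P0 libraries, which lay below all P3 libraries. E2f3 (chr13:29906575-29986063, minus strand) held 1059.8, 1022 and 992 normalized counts at E13.5, 124, 149.7 and 159 at E16.5, 193, 176 and 195 at P0, and 927, 988 and 868 at P3. Its E13.5 and P3 levels thus stood far above the levels at E16.5 and P0, which lay closer to each other. From E13.5 to E16.5 the log2 difference was -2.33 for E2f2 (SE 0.257) and -2.83 for E2f3 (SE 0.120), with limma adjusted p of 3.12e-07 and 1.48e-12. From E16.5 to P0 E2f2 rose by 1.38 and E2f3 by 0.38 on the log2 scale (limma adjusted p = 1.97e-04 and 0.0108). In a fit of only those 2 stages, E2f3 did not pass (limma adjusted p = 0.0580). From P0 to P3 E2f2 rose by 0.82 and E2f3 by 2.30 (limma adjusted p = 0.00827 and 3.05e-11). The rise of E2f2 depends on the scaling, at 0.38 under median-of-ratios factors (limma adjusted p = 0.176) and -0.01 with equal library totals (limma adjusted p = 0.966). Neither gene passed between P3 and E13.5, at -0.12 for E2f2 and -0.14 for E2f3 (limma adjusted p = 0.690 and 0.298). All P3 libraries lay below all E13.5 libraries for E2f3, and the libraries overlapped for E2f2. With equal library totals both values were above 0, at 0.20 and 0.18 (limma adjusted p = 0.510 and 0.210).

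E2f4 and E2f5, the repressors that pair with pocket proteins, fell at E16.5 and came back only in part. E2f4 (chr8:105297663-105305370, plus strand) held 2322, 2059 and 1925.5 normalized counts at E13.5, 361, 481 and 386 at E16.5, 434, 372 and 384 at P0, and 1163, 1068.5 and 1168 at P3. E2f5 (chr3:14578641-14606309, plus strand) held 6054, 5844.5 and 5837.5 at E13.5, 725, 969.8 and 956 at E16.5, 1325, 1323 and 1171 at P0, and 2658, 2574 and 2267 at P3. Libraries overlapped between E16.5 and P0 for E2f4, and no other pair of stages overlapped for either gene. The log2 difference of E16.5 from E13.5 was -2.36 (SE 0.116) for E2f4 and -2.75 (SE 0.104) for E2f5, with limma adjusted p of 8.37e-12 and 3.72e-13. At P0 E2f5 exceeded E16.5 by 0.54 (limma adjusted p = 2.96e-04), and E2f4 differed by -0.04 (SE 0.116, limma adjusted p = 0.801). That value of E2f4 has no settled direction, at 0.08 with TMM factors (limma adjusted p = 0.553), 0.22 with median-of-ratios factors (0.0910), 0.63 with equal library totals (1.43e-04) and 0.08 without E16.5 library 3 (0.529). From P0 to P3 they rose by 1.51 and 0.97 on the log2 scale (limma adjusted p = 3.65e-09 and 2.64e-07), E2f5 by 0.13 with equal library totals (limma adjusted p = 0.272). Against E13.5 they were still lower at P3, by -0.89 for E2f4 and -1.24 for E2f5 (limma adjusted p = 3.11e-06 and 1.45e-08), at 53.9% and 42.3% of the E13.5 means.

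With the deposited size factors E2f6, the repressor that lacks a pocket-binding region and acts with the Polycomb complex PRC1.6, alternated between a low and a high level. E2f6 (chr12:16810963-16839742, plus strand) held 4611, 4386 and 4370.5 normalized counts at E13.5, 12307, 11818 and 10413 at E16.5, 5285, 4837 and 4325 at P0, and 11607, 11313 and 11906 at P3. All 6 libraries of E16.5 and P3 lay above all 6 of E13.5 and P0, and within each pair of stages the libraries overlapped. With the deposited factors the high and low stages of E2f6 are also those tagged Morc1 (-/-) and Morc1 (+/-). For this member the genotype tag and the level then move together, and their part cannot be told apart from stage. E2f6 rose by 1.37 on the log2 scale from E13.5 to E16.5 (SE 0.0798, limma adjusted p = 8.44e-11), fell by 1.26 to P0 (limma adjusted p = 7.81e-10) and rose by 1.27 to P3 (limma adjusted p = 2.96e-10). Within 1 tag the log2 differences were 0.11 for P0 against E13.5 (limma adjusted p = 0.215) and 0.02 for P3 against E16.5 (limma adjusted p = 0.874). The former became 0.31 with TMM factors (limma adjusted p = 5.01e-04), 0.59 with median-of-ratios factors (1.40e-06) and 1.28 with equal library totals (7.06e-12), and 0.18 without P0 library 4 (limma adjusted p = 0.0459). The latter turned to -0.04 with TMM factors (limma adjusted p = 0.619), -0.17 with median-of-ratios factors (0.0586) and -0.16 with equal library totals (0.0247). The steps between neighbouring stages were 1.87, -0.60 and 0.43 with equal library totals (limma adjusted p = 1.05e-13, 3.50e-07 and 6.95e-06). Under that scaling P0 lay nearer to E16.5 and P3 than to E13.5, so the alternation rests in part on the scaling.

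The atypical repressors E2f7 and E2f8, which restrain the activators' targets in dividing cells, both fell at E16.5 but to different degrees. E2f7 (chr10:110745439-110787384, plus strand) held 1469, 1422 and 1395.5 normalized counts at E13.5, 407, 452 and 383 at E16.5, 512, 486 and 396 at P0, and 1178, 1189 and 1385 at P3. E2f8 (chr7:48866429-48881596, minus strand) held 974, 997 and 999 at E13.5, 6.68, 26.0 and 26.1 at E16.5, 52.7, 39.1 and 37.6 at P0, and 409, 483 and 569 at P3. For E2f8 no stages overlapped, and its E16.5 libraries rest on 7, 28 and 33 reads. The exact 95% Poisson interval for the 7 reads is 2.81 to 14.4, which is 2.69 to 13.8 normalized counts. E16.5 library 1 is low against the other 2 at that stage beyond this interval. The log2 difference of E16.5 from E13.5 was -1.79 for E2f7 (SE 0.111) and -5.80 for E2f8 (SE 0.356), with limma adjusted p of 1.90e-10 and 1.60e-10. Without E16.5 library 1 the value of E2f8 was -5.19. At P0 E2f8 exceeded E16.5 by 1.30 (limma adjusted p = 0.00477), or by 0.69 without that library (limma adjusted p = 0.00732). E2f7 differed there by 0.16 (limma adjusted p = 0.221), and passed at 0.28 with TMM factors (0.0287), 0.42 with median-of-ratios factors (0.00275), 0.82 with equal library totals (4.44e-06) and 0.27 without P0 library 4 (0.0455). Both rose from P0 to P3, E2f7 by 1.43 and E2f8 by 3.47 on the log2 scale (limma adjusted p = 4.58e-09 and 1.54e-07). At P3 E2f7 did not pass against E13.5 (-0.20, limma adjusted p = 0.128, and 0.13 with equal library totals), though all its P3 libraries lay below all E13.5 libraries, while E2f8 was lower by -1.04 (limma adjusted p = 0.0160). That last call was lost with equal library totals (-0.71, limma adjusted p = 0.0984) and without P3 library 1 (-0.92, 0.0625). Of the exon bases of E2f8, 11.2% lie opposite Gm2788, and the strand setting of the counting is not given, so reads of the pair cannot be told apart in that stretch.

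Ccne1 and Ccne2, which encode the 2 E-type cyclins, fell and rose together but by unequal amounts. Ccne1 (chr7:38097984-38107534, minus strand) held 5850, 5169 and 5863 normalized counts at E13.5, 313, 319 and 287 at E16.5, 497, 452 and 455 at P0, and 2707.5, 2761.5 and 2995 at P3. Ccne2 (chr4:11191351-11204779, plus strand) held 1527, 1362 and 1207 at E13.5, 518, 479.8 and 399.7 at E16.5, 749.8, 699 and 576 at P0, and 1707, 1789 and 1562 at P3. No stages overlapped for either gene, and both were lowest at E16.5. Ccne1 differed by -4.19 on the log2 scale between E16.5 and E13.5 (SE 0.0859, limma adjusted p = 6.52e-16) and Ccne2 by -1.55 (SE 0.124, limma adjusted p = 4.96e-09). At P0 they had risen over E16.5 by 0.61 and 0.53, and from P0 to P3 they rose by 2.59 and 1.33, with limma adjusted p from 1.86e-13 to 0.00136 over the 4 values. At P3 Ccne1 was back to 50.1% of its E13.5 mean (log2 difference -0.99, limma adjusted p = 2.15e-08). Ccne2 exceeded E13.5 by 0.31 at P3 (limma adjusted p = 0.0351). That call of Ccne2 was lost with no filter on low values (limma adjusted p = 0.0701) and without E13.5 library 3 or 4 or P3 library 1 or 3 (0.0695 to 0.159). Of the exon bases of Ccne2, 17.4% lie opposite Ints8, whose reads cannot be told apart from it there.

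The makeup of the E2F transcripts changed with stage. To compare genes, normalized counts were divided by exon length in kilobases, and each gene was taken as a share of the 8 E2F genes in its library, a quantity that no scaling factor affects. The summed level per kilobase does depend on the scaling. With the deposited factors it was 8323 ± 111 at E13.5, 4160 ± 203 at E16.5 and, after birth, 2537 ± 169 at P0 and 7627 ± 136 at P3. Equal library totals have factors 1.42, 0.997, 0.629 and 1.13 times the deposited ones in the same order. They would thus lower the sum at E13.5 and raise it at P0. The shares that follow are free of this. E2f5 led at E13.5 with 39.9% ± 0.373, ahead of E2f1 with 33.4% ± 1.51. At E16.5 E2f6 led with 48.8% ± 2.40, from 9.45% ± 0.173 at E13.5, and E2f5 had 11.96% ± 2.08. At P0 E2f6 with 33.5% ± 1.29, E2f5 with 28.2% ± 0.417 and E2f1 with 27.3% ± 1.27 were close, the last 2 overlapping between libraries. At P3 E2f1 led with 42.8% ± 1.20, ahead of E2f6 with 26.9% ± 0.231. Taken by class, the 3 activators made up 36.3% ± 1.41, 34.0% ± 0.585, 29.6% ± 1.36 and 45.7% ± 1.12 of the sum from the youngest stage to the oldest, nearly all of it E2f1. E2f4 and E2f5 together made up 50.2% ± 1.25, 16.0% ± 2.48, 34.5% ± 0.121 and 24.5% ± 1.66. E2f7 and E2f8 together made up 4.09% ± 0.0481, 1.19% ± 0.0873, 2.34% ± 0.164 and 2.99% ± 0.324. The activators' share thus stayed within a narrower range than that of the repressors E2f4 and E2f5, and at E16.5, where the latter was lowest, the share of E2f6 was highest. Shares of the same sum are tied, since a rise in any of them lowers the rest, so these are not separate results.

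Ratios within a library gave the same picture without a scaling factor. E2f1 over E2f6, per kilobase, was 3.54 ± 0.223 at E13.5, 0.680 ± 0.0309 at E16.5 and, after birth, 0.816 ± 0.0678 at P0 and 1.59 ± 0.0311 at P3. Ccne1 over Ccne2 was 5.46 ± 0.792, 0.870 ± 0.0754, 0.918 ± 0.103 and 2.21 ± 0.269 in the same order. So Ccne1 was the more abundant E-type cyclin per length at E13.5 and P3, and at E16.5 and P0 the pair were near parity. E2f7 over E2f8 was 0.872 ± 0.0348 at E13.5 and 36.8, 10.5 and 8.86 in E16.5 libraries 1, 3 and 4, then 6.57 ± 0.839 at P0 and 1.57 ± 0.152 at P3. E2f1 over E2f3 was 14.8 ± 1.04, 52.6 ± 8.83, 20.04 ± 2.15 and 19.2 ± 2.05. In an exact permutation test among the 4 stages (1 value per library, a statistic without direction), the ratios E2f1 over E2f6 and E2f7 over E2f8 and all 4 class shares gave p = 6.49e-05, the smallest the test allows. Ccne1 over Ccne2 gave p = 4.55e-04 and E2f1 over E2f3 p = 3.90e-04 in the same exact permutation test, and over the 8 quantities the Benjamini-Hochberg adjusted values were 8.66e-05 to 4.55e-04. The 4 class shares add to the whole in each library, and E2f1 over E2f6 is built from the same values. Their p-values are therefore not separate results. Between any 2 stages, 3 libraries against 3 allow no exact p below 0.1.

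**Figure D2:**
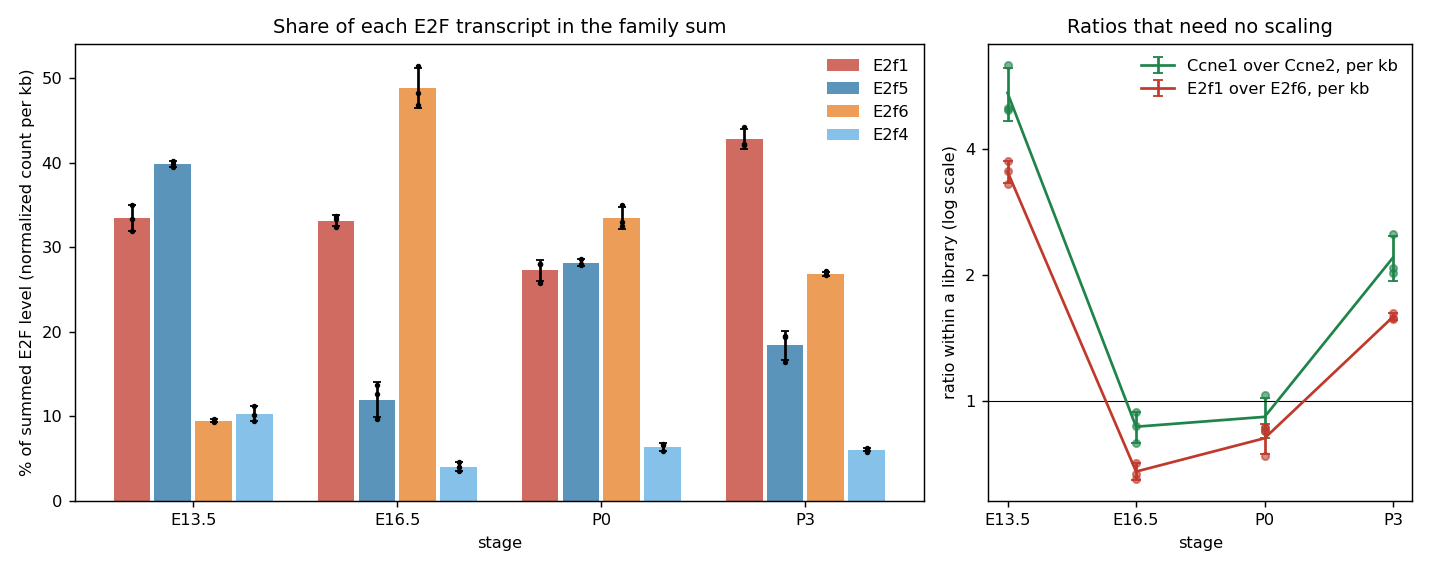
Left, share in percent of the summed E2F level (normalized count per kilobase of exon) of the 4 most abundant E2F genes by stage, bars for means of 3 libraries, points for libraries and error bars of 1 SD. Right, ratios within a library on a log axis, with the same error bars. E2f6 goes from 9.45% at E13.5 to 48.8% at E16.5, and both ratios are below 1 at E16.5 and P0 on average.

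The counts of members that passed are to be read against the share of all tested genes that passed, which was large. Among the 4 stages all 10 members differed in the limma F-test, as did 95.2% of the 22384 genes tested. E16.5 against E13.5 called 9 members lower and 1 higher, where 34.6% of all genes were lower and 45.5% higher, and the median log2 difference was -2.35 over the members and 0.31 over all genes. P0 against E16.5 called 6 higher and 2 lower, against 27.6% and 33.4% of all genes, with medians of 0.46 and -0.01. P3 against P0 called 10 higher, against 40.1% of all genes higher and 36.4% lower, with medians of 1.47 and 0.05. Within 1 genotype tag, P0 against E13.5 called 9 lower, against 40.5% of all genes lower and 45.7% higher (medians -2.11 and 0.20), and P3 against E16.5 called 9 higher, against 34.2% higher and 35.2% lower (medians 1.73 and -0.05). In the latter 2 comparisons the member that was not called was E2f6. P3 against E13.5 called 3 higher (E2f1, E2f6 and Ccne2) and 4 lower (E2f4, E2f5, E2f8 and Ccne1), against 39.2% and 31.2% of all genes, with medians of -0.17 and 0.16. These comparisons share libraries and are not independent of each other. The quasi-likelihood test of edgeR and DESeq2 on the recovered reads gave the same member counts in each direction in all 6 comparisons, with 0 members lower for P3 against P0 and P3 against E16.5 and 0 higher for P0 against E13.5 by limma, edgeR and DESeq2, and by limma at an unadjusted p under 0.05.

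**Figure D3:**
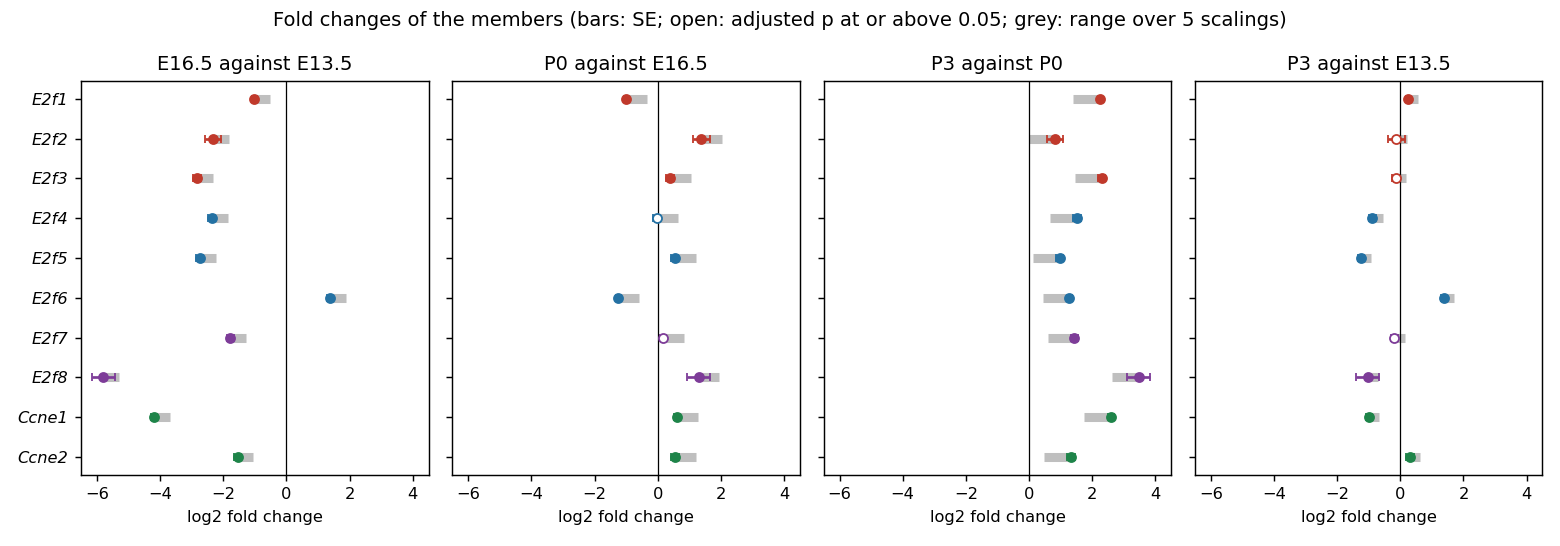
Log2 fold change of each member in 4 comparisons, with bars for the SE (limma) and open points where the adjusted p is at or above 0.05. Grey bands span the values under 5 scalings of the libraries, and they cross 0 for E2f4 at P0 against E16.5 and for E2f2, E2f3 and E2f7 at P3 against E13.5, and reach just below 0 for E2f2 at P3 against P0.

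How the libraries are scaled bears most on values that involve P0, whose size factors were 1.84 to 2.07, against 0.919 to 1.26 at the other stages. When the deposited factors were replaced by equal library totals, the median log2 difference of all genes moved from 0.31 to 0.77 for E16.5 against E13.5, from -0.01 to 0.64 for P0 against E16.5, from 0.05 to -0.77 for P3 against P0 and from 0.16 to 0.46 for P3 against E13.5. The members moved with it, to medians of -1.84, 1.12, 0.63 and 0.16. For P0 against E13.5 the shift was from 0.20 to 1.33 over all genes and from -2.11 to -0.94 over the members, and for P3 against E16.5 from -0.05 to -0.22 and from 1.73 to 1.55. Calls under equal totals were 9 lower and 1 higher for E16.5 against E13.5, 8 higher and 2 lower for P0 against E16.5, 8 higher for P3 against P0, 7 lower and 1 higher for P0 against E13.5, and 9 higher and 1 lower for P3 against E16.5. The shares of all genes given above are for the deposited factors and are no measure for these counts. The fall of 9 members and the rise of E2f6 from E13.5 to E16.5 were called under all 5 scalings. From E16.5 to P0 E2f1 and E2f6 were called lower under all 5 as well.

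The partners of the E2F proteins did not all follow them. With the deposited factors, counts over the lists of partners and targets are to be read against the shares of all tested genes given above. These are 34.6% lower and 45.5% higher at E16.5 against E13.5, 33.4% lower and 27.6% higher at P0 against E16.5, and 36.4% lower and 40.1% higher at P3 against P0. Counts under other scalings have no such share beside them. Of the DP proteins, with which E2F1 to E2F6 pair to bind DNA, Tfdp1 fell from 30928 ± 1288 to 7404 ± 599 normalized counts between E13.5 and E16.5 and was 32336 ± 543 at P3, while Tfdp2 rose by 0.24 on the log2 scale at E16.5 and fell by 1.20 at P0 (limma adjusted p = 0.00550 and 4.32e-10). Among the pocket proteins, which hold E2Fs in check, Rb1 and Rbl1 (p107) fell at E16.5 by 1.73 and 2.37 on the log2 scale and Rbl2 (p130) did not pass (0.28, limma adjusted p = 0.226), though it was called higher with median-of-ratios factors and with equal library totals. Rb1 had risen again by P0, by 1.34 (limma adjusted p = 1.38e-07), while Rbl1 did not pass (0.08, limma adjusted p = 0.637), and all 3 were higher there with equal library totals. Rbl1 rose by 2.18 from P0 to P3, and Rbl2 fell by 0.97 (limma adjusted p = 3.10e-10 and 4.56e-04). Of the exon bases, 21.0% of Rbl2 and 14.9% of Rb1 lie opposite other genes, whose reads cannot be told apart there.

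For cyclin E, the kinase Cdk2 fell by 1.13 on the log2 scale at E16.5 and rose by 1.65 from P0 to P3, with 0.04 between P0 and E16.5 (limma adjusted p = 0.695). The CDK inhibitors took different courses. Cdkn1a (p21) was at 1979 ± 167 normalized counts at E13.5, 314 ± 51.6 at E16.5 and, after birth, 207 ± 14.6 at P0 and 1477 ± 129 at P3, and so was lowest at P0. Cdkn1c (p57) was at 3363 ± 130, 1873 ± 172, 6098 ± 320 and 1414 ± 134, and so was highest at P0, by 1.71 on the log2 scale over E16.5 (limma adjusted p = 6.32e-11). P0 is also where the Sertoli and peritubular markers summed highest on average, and their part in the value of Cdkn1c was not tested. Of the exon bases of Cdkn1c, 30.7% lie opposite Gm44732, whose reads cannot be told apart from it there. Cdkn1b (p27) was low throughout, at 158 ± 34.0 at P0 and 81.0 ± 8.46 at E16.5 (log2 difference 0.94, limma adjusted p = 0.00504). Over these 5 genes, Cdc25a the fifth, 4 were lower at E16.5 than at E13.5, 2 were higher and 2 lower at P0 than at E16.5, and 3 were higher and 1 lower at P3 than at P0. The 4 of 5 lower at E16.5 stand against 34.6% of all genes, and the counts of the later steps lie nearer the shares of all genes. In a list of 5 such counts show nothing about it as a whole. With equal library totals 3 were higher at P0 than at E16.5 and the others did not pass. Of the 6 genes of the ubiquitin ligases that destroy cyclin E, 5 were lower and Skp1a higher at E16.5 (3 lower and 2 higher with equal library totals), and 5 were lower at P0, the exception being Cul3 (2 lower and 2 higher with equal library totals). At P3 against P0 5 were higher and Fbxw7 did not pass (0.02, limma adjusted p = 0.832), and with equal library totals 2 were higher and 3 lower.

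Most partners of E2F6 in PRC1.6 did not rise with it at E16.5. Of 10 genes, 8 were lower at E16.5 than at E13.5, among them Pcgf6, which defines the complex (6769 ± 224 to 2334 ± 112 normalized counts), and L3mbtl2 (6221 ± 126 to 2514 ± 206). Wdr5 was higher by 0.44 on the log2 scale (limma adjusted p = 8.03e-05), and Mga, the scaffold, did not pass (-0.11, limma adjusted p = 0.156). The list's median log2 difference was -1.54, against 0.31 over all genes, and 8 were lower under each of the 5 scalings. From P0 to P3, when E2f6 rose, 9 of 10 were higher (median 1.12), or 5 higher and 3 lower with equal library totals. Ring1, an E3 ligase shared by Polycomb complexes, stood apart at -0.04 (limma adjusted p = 0.774).

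The S-phase genes that activator E2Fs switch on were lower at E16.5 than at E13.5 and higher at P3 than at P0, as most members were. Of 30 such genes 29 were tested, and Rrm2 was listed at 0 in every library. All 29 were lower at E16.5 than at E13.5 (median log2 difference -1.90), 28 with median-of-ratios factors, and 28 lower and 1 higher with equal library totals. From E16.5 to P0 22 were lower and 3 (Tk1, Chek1 and Slbp) higher (median -0.66). With equal library totals 12 were lower and 9 higher, so the balance of this step rests on the scaling. From P0 to P3 28 of 29 were higher (median 2.59), Pole being the exception at 0.04 (limma adjusted p = 0.652), and 26 were higher and 2 lower with equal library totals. Uhrf1, which guides maintenance of DNA methylation, rose from 1376 ± 207 to 31559 ± 2158 normalized counts between P0 and P3, and stood 2.04 above E13.5 on the log2 scale (limma adjusted p = 7.92e-12). The replication licensing gene Cdc6 rose by 4.09 over that step (limma adjusted p = 4.95e-13). At P3 against E13.5 7 were higher and 13 lower, or 16 higher and 6 lower with equal library totals.

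The MuvB core and its partners, which form the DREAM complex with E2F4 or E2F5 in resting cells and join Mybl2 and Foxm1 in dividing ones, had 7 of 7 genes lower at E16.5 (median log2 difference -1.39), or 5 lower and 1 higher with equal library totals. Mybl2 went from 19448 ± 572 normalized counts at E13.5 to 3585 ± 96.6 at E16.5 and, after birth, 863 ± 126 at P0 and 6511 ± 371 at P3. Foxm1 went from 1736 ± 66.3 to 625 ± 63.2, 279 ± 50.2 and 2217 ± 291. Both fell at E16.5 and again at P0, in the stepwise order of E2f1. From P0 to P3 all 7 were higher, by 0.36 (Lin52) to 2.99 (Foxm1) on the log2 scale, or 4 higher and 1 lower with equal library totals.

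**Figure D4:**
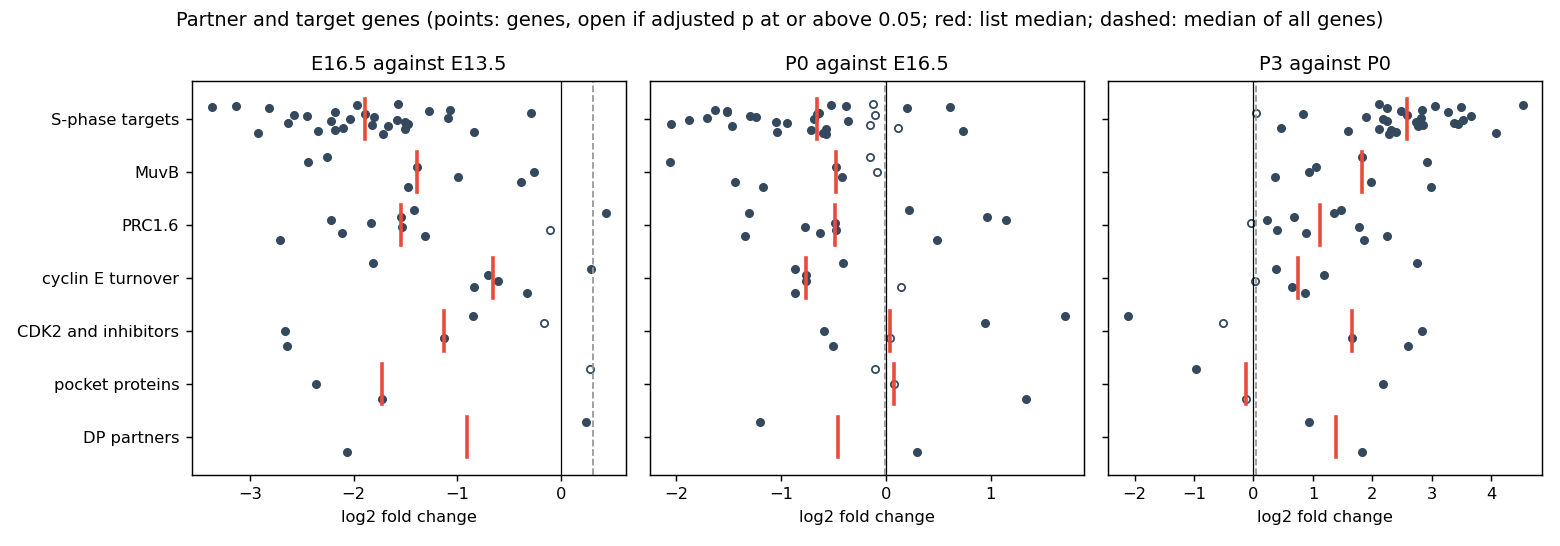
Log2 fold change of each tested gene of 7 lists of E2F partners and targets in the comparisons of neighbouring stages, open where the limma adjusted p is at or above 0.05, with the list median in red and the median of all genes dashed. With the deposited size factors the S-phase targets lie below 0 throughout at E16.5 against E13.5 and above 0 at P3 against P0.

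The genes whose course over the 12 libraries was most like a member's were sought among 13610 genes by the root mean square difference of mean-centred log2 values. For E2f1 they were Bmp7 (0.0883), Alad (0.108) and Cog8 (0.112). For E2f6 the nearest was Pgm1 (0.0624), whose stage means of 4608.5, 11517, 4496 and 11450 normalized counts ran as those of E2f6, followed by Rubcn and Kctd10. E2f3 was nearest to Syce2 (0.115), a gene of the synaptonemal complex, and E2f7 to Icmt (0.0783). E2f4 was nearest to Chfr (0.109) and E2f5 to Tpd52 (0.110) and its pseudogene Tpd52-ps, between which reads may have been split. Matches were looser for Ccne2 (Slc19a2, 0.125), E2f2 (Crlf2, 0.243), Ccne1 (Pus1, 0.296) and E2f8 (Lhx1, 0.554). Among the members themselves the closest pairs were E2f4 with E2f5 and E2f7 with Ccne2, both at 0.269, and the farthest was E2f6 with E2f8 at 2.69. All these distances share the libraries and the scaling, and carry no test.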

How the data were processed

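RNA of 12 germ cell libraries was sequenced after SMART-seq v4 amplification and TruSeq mRNA preparation, per the labels' protocols. The authors deposited 1 table of 55487 genes, and the submitters' processing notes name bcl2fastq 2.20, cutadapt 1.18, HISAT2 2.1.0, featureCounts 1.5.2, DESeq2 1.26.0 and the builds mm10 and GRCm38. The deposited signal is a read count per gene divided by 1 RLE (relative log expression) size factor per library. In every library 100% of the values were whole multiples of 1 read's worth within a tolerance of 0.001, so reads and factors were recovered. Depth was 40946616 to 51533747 reads per library. Reads were amplified without molecular identifiers, so intervals include no error but that of counting. The strand setting and the handling of reads that match several genes are not given in the sources used here. No pair of libraries of a stage held the same counts (chi-square per degree of freedom 5.44 to 19.1, against counting noise alone), and each was used as 1 replicate.

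Columns were assigned to stages by their heads. Symbols matched 55141 of 55487 identifiers (99.4%). Positions and exon lengths are from GENCODE M21. The members, gene lists, marker lists and tests were chosen with earlier results of these data known. Named genes are the members, genes of the lists and, per member, the 3 nearest in course with predicted genes left out and a mean of 100 or more required in the highest stage.

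log2(normalized count + 1) was taken for the 22384 genes that reached 10 normalized counts in 3 or more libraries and fitted with limma 3.58.1 in R 4.3.3 (lmFit, eBayes with a trend) over all 4 stages, with 8 residual degrees of freedom. Calls used Benjamini-Hochberg adjusted p under 0.05 over all genes tested. The added 1 by itself makes fold changes of low genes smaller, but not every low gene came out smaller than by edgeR. E2f8 at E16.5 against E13.5 was -5.80 on this scale and -5.63 by edgeR. Tried besides were poscounts, TMM and median-of-ratios factors and equal library totals, a pseudocount of 0.1 or 10, testing unfiltered genes or those with means from 100, requiring a log2 difference of 1 in size, fitting 2 stages alone, leaving out each library, adding the column number as a block, and edgeR 4.0.16 (quasi-likelihood) and DESeq2 1.42.0 on recovered reads. In simulated data with 200 genes changed 4-fold at P0, limma, edgeR and DESeq2 each recovered 100% of them, and called at most 13, 11 and 26 of 20117 genes wrongly in a comparison with P0. The simulation used 1 dispersion for all genes and gave each tool the true size factors. In the data 95.2% of genes differed among the stages, so the simulation does not measure errors that come from scaling.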

Additional observations from a re-analysis of the deposited data

How the results depend on the processing

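Most calls were the same under the settings tried. Leaving out a library of neither stage compared, changing the filter, fitting 2 stages alone or adding the block cannot change a log2 difference. In those settings only the side of the threshold could move, so the direction of many values counted here was fixed in advance. Among the values of single members, 1405 kept their direction and their side of the threshold, 11 lost the call and 8 gained one. The other 16 changed direction, and the cause was not tested. For 5 of them, all with equal library totals, the value was called before or after: E2f4 at P0 against E16.5 (0.63), E2f2 at P3 against P0 (-0.0136), E2f2 and Ccne2 at P0 against E13.5 (0.22 and 0.15) and E2f6 at P3 against E16.5 (-0.16). The others were called neither time. They were E2f4 at P0 against E16.5 with TMM factors (0.0795), median-of-ratios factors (0.22), without E16.5 library 3 and without P0 library 3 (-0.12 to 0.0846 over all libraries left out in turn), E2f6 at P3 against E16.5 with TMM factors (-0.0399), median-of-ratios factors (-0.17), without E16.5 library 4 and without P3 library 4 (-0.0553 to 0.0652), and E2f2, E2f3 and E2f7 at P3 against E13.5 with equal library totals (0.20, 0.18 and 0.13). Counts of members called moved by over 1.5 times only where a log2 difference of 1 or more in size was also asked for, to 3 for P0 against E16.5 and to 3 for P3 against E13.5. Leaving out each library in turn gave 8 to 9 members for P0 against E16.5, 9 to 10 for P0 against E13.5 and 5 to 7 for P3 against E13.5, and did not change the other counts (10 for E16.5 against E13.5 and P3 against P0, 9 for P3 against E16.5). No label says that the column numbers 1, 3 and 4 pair libraries across stages. Over genes, deviations from the stage means correlated by -0.0356 to 0.0423 in the 18 same-numbered pairs, and 2 of 12 libraries were nearest on average to their own number. A fit with the column number as a replicate block, chosen after seeing the data, called 10, 8, 10, 9, 9 and 7 members in the 6 comparisons, as without it, and 10 among the 4 stages. Depth limits E2f8 and E2f2 at E16.5, which rest on 7 to 33 and 30 to 73 reads.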
